A study of Homo sapiens with 18 samples.

Results

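Collagens are the structural proteins of the extracellular matrix, and their genes were followed here in a human melanoma cell line in which the coactivator subunit gene TADA2B was knocked out and the transcription factor SOX10 was overexpressed. The collagen genes were taken as the protein-coding genes of the deposited count table whose symbol is COL, a number, A and a number. There were 44 such genes among 58721 in the table, and 36 of them passed the low-count filter, among 21060 genes that passed it. The 8 collagen genes that did not pass reached at most 12 counts in any library. Members that passed the filter are therefore not all collagen genes, and the counts of calls below describe these 36 only.

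A collagen chain carries a long run of Gly-X-Y triplets, and chains wind around each other into a triple-helical trimer of identical or different chains. Fibrillar collagens build the load-bearing fibrils, the type IV chains build the network of basement membranes, and fibril-associated collagens with interrupted triple helices (FACIT) sit on the surface of fibrils. Transmembrane collagens span the cell membrane, type VI chains build beaded microfilaments, type VIII and type X are short-chain network formers, and the multiplexins COL15A1 and COL18A1 are proteoglycan-like collagens of basement membrane zones. By these classes the table held 11 fibrillar, 6 basement membrane, 10 FACIT, 4 transmembrane, 5 beaded filament, 1 anchoring fibril, 3 short-chain network, 2 multiplexin and 2 other collagen genes. SOX10 is a neural crest and melanocyte factor of the SOXE family. Its relative SOX9 is known to switch on cartilage collagen genes, such as those of types II, IX and XI, in chondrocytes.

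The cells were A375, an established melanoma line obtained from ATCC and kept in DMEM with fetal bovine serum. Polyadenylated RNA was sequenced from 18 libraries in 6 groups of 3. Control cells, with the genotype WT in the labels, received a GFP guide, which has no target in these cells. A group called control plus SOX10 had the GFP guide together with SOX10 overexpression. The gene TADA2B encodes an adaptor subunit of the SAGA histone acetyltransferase complex. It was knocked out with 2 guides, and the groups guide 1 and guide 2 are these cells without SOX10 overexpression. Groups guide 1 plus SOX10 and guide 2 plus SOX10 are the same knockouts with SOX10 overexpression. The sources used here do not give how SOX10 was introduced, nor whether each line is a clone or a pool of edited cells. The labels do not say that the 3 libraries of a group came from separate cultures, so each p-value rests on the spread between these samples alone, and that spread may be technical.

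Total counts ran from 58573910 to 79874237 per library, and 3 counts correspond to 0.0359 to 0.0493 CPM, the count scaled to the effective library size, depending on the library. Mitochondrial genes took 0.661% to 0.910% of the counts in the libraries with the control guide and 0.857% to 1.21% in the knockout libraries, and the part of that difference in the knockout changes was not tested. The TADA2B transcript stood at 32.8, 32.2 and 32.5 CPM in the control libraries, 26.1, 25.6 and 26.4 in guide 1 and 28.6, 27.5 and 30.2 in guide 2, a change of -0.25 on the log2 scale in knockout cells (adjusted p = 1.16e-06). A guide that disrupts the coding sequence need not lower the transcript, so this level is no check of the edit. SOX10 averaged 354 CPM in control, 452 in control plus SOX10, 83.6 in guide 1, 291 in guide 1 plus SOX10, 43.4 in guide 2 and 246 in guide 2 plus SOX10. Overexpression therefore added 0.35 log2 units in control cells and 2.15 in knockout cells, which started from less SOX10. Melanoma lineage markers checked for the labelled cell type summed to 743 to 778 CPM in control and 149 to 209 CPM in the 2 knockout groups without SOX10 overexpression. Much of that sum was SOX10 itself, and the pigment cell genes MLANA and TYR averaged 1.16 and 0.0150 CPM in control. Of the 8 tested markers, 3 rose and 5 fell in knockout cells, against 28.6% and 29.5% of all tested genes, and MITF (1.15) was among those that rose.

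Levels below are CPM with effective library sizes from edgeR's TMM factors. Changes are log2 fold changes ± standard error (SE) from edgeR's quasi-likelihood test, with Benjamini-Hochberg adjusted p-values over all 21060 genes, and a gene is said to rise or fall where the adjusted p is under 0.05. "Knockout" without a guide is the mean of both guides. "With SOX10" and "without SOX10" name the overexpression and not the amount of SOX10. Control cells without it averaged 354 CPM of SOX10, against 291 and 246 in guide 1 and guide 2 cells with it. Levels of different genes are compared only as CPM per kilobase of exon. In a bulk library, fewer cells of a type and less RNA per cell cannot be told apart.

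Summed over all 44 genes, collagen RNA stood at 164 ± 4.07 CPM per kilobase (SD, n = 3) in control. The sum was 116 ± 4.91 in guide 1 and 103 ± 7.17 in guide 2, and no library of either knockout group reached the lowest control library. With SOX10 overexpression the sums were 174 ± 6.78 in control, 158 ± 8.49 in guide 1 and 139 ± 4.39 in guide 2 cells. In control cells 4 chains led the per-kilobase order: COL5A2 with 16.5% of the summed level, COL4A2 with 15.4%, COL9A3 with 14.4% and COL6A1 with 13.4%. In guide 1 cells the first places went to COL4A2 with 17.9% and COL4A1 with 16.7%. Across the family, 29 genes reached 1 CPM in the mean of at least 1 group, 17 reached 10 CPM and 6 reached 100 CPM, while 7 tested genes stayed under 1 CPM in every group mean.

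**Figure D1:**
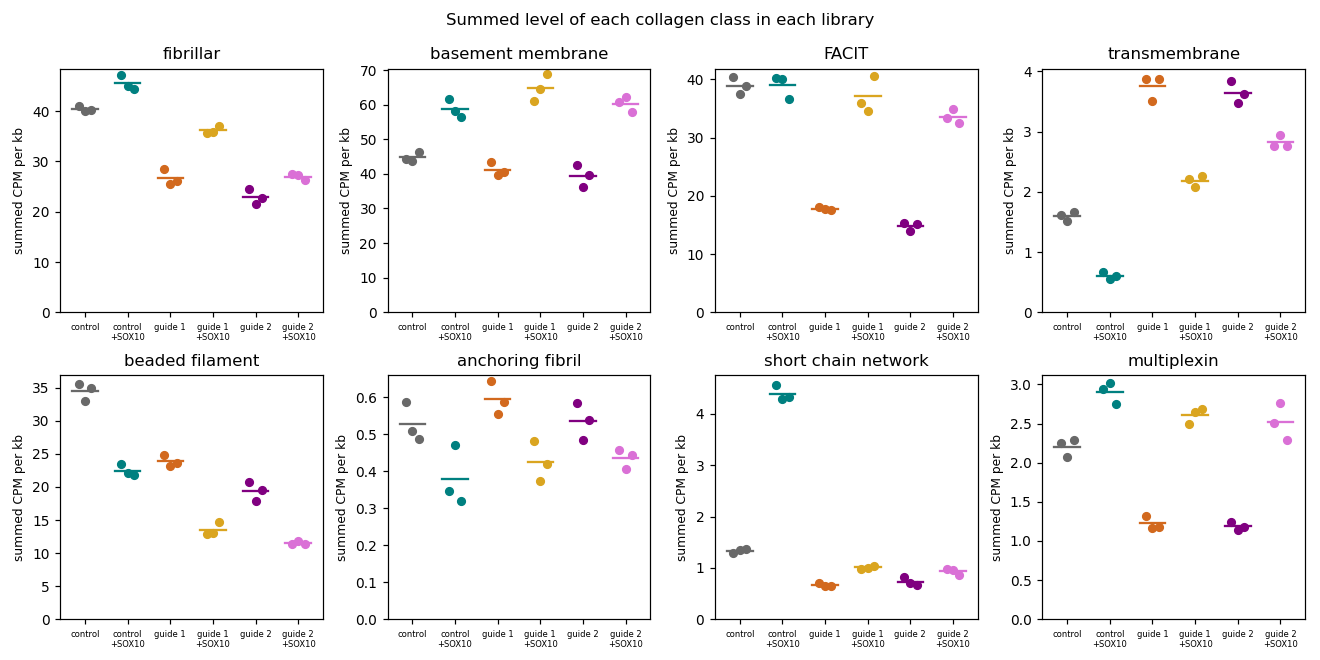
Summed level of each collagen class in CPM per kilobase of exon, by group; points are the 3 libraries and horizontal lines the group mean. The FACIT sum lies at 38.9 in control and at 17.8 and 14.8 in guide 1 and guide 2. With SOX10 overexpression it is 37.1 and 33.6 in guide 1 and guide 2 cells. Against control, 6 of 9 tested FACIT genes are then higher and 3 lower (30.0% and 27.9% of all tested genes). Of these, COL21A1 (higher) and COL16A1 (lower) were not called without control replicate 1 (adjusted p = 0.164 and 0.14). The beaded filament sum is lowest in the knockout cells with SOX10.

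The summed class levels moved in different directions, and single genes carried much of some sums. In control, COL9A3 gave 23.6 CPM per kilobase of the FACIT sum and COL13A1 1.54 of the transmembrane sum. COL4A1 and COL4A2 gave 18.8 and 25.4 of the basement membrane sum in control. FACIT collagens summed to 38.9 ± 1.47 CPM per kilobase in control, 17.8 ± 0.330 in guide 1 and 14.8 ± 0.758 in guide 2. With SOX10 overexpression the FACIT sum was 39.0 ± 1.99 in control, 37.1 ± 3.08 in guide 1 and 33.6 ± 1.14 in guide 2 cells. Transmembrane collagens went the other way in the knockouts, from 1.60 ± 0.0718 in control to 3.75 ± 0.216 and 3.65 ± 0.189 in the guide 1 and guide 2 groups. Beaded filament collagens stood at 34.5 ± 1.34 in control, 22.4 ± 0.883 in control plus SOX10, 23.9 ± 0.896 in guide 1 and 13.5 ± 1.04 in guide 1 plus SOX10, so the knockout and SOX10 groups both lay below control. Without SOX10 overexpression the basement membrane sum was 44.8 ± 1.41, 41.3 ± 1.91 and 39.4 ± 3.13 in control, guide 1 and guide 2, and stood at 58.7 ± 2.60, 64.8 ± 3.92 and 60.3 ± 2.13 with it.

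In TADA2B knockout cells, 10 of the 36 tested collagen genes rose and 19 fell, against 28.6% of all tested genes that rose and 29.5% that fell. The median log2 change of the 36 was -0.27, beside -0.01 over all tested genes. Of 9 tested FACIT genes 7 fell and 1 rose, all 3 tested beaded filament genes fell, and all 3 tested transmembrane genes rose. Of 10 tested fibrillar genes 3 rose and 5 fell, and of 6 basement membrane genes 2 rose and 2 fell. Scaling by library size alone moves the median of all genes from -0.01 to 0.15 in this comparison, with 9112 genes then called higher and 3545 lower in place of 6025 and 6205. Under that scaling 13 collagen genes rose and 17 fell.

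SOX10 overexpression in control cells raised 14 and lowered 12 of the 36 genes, against 17.3% and 17.2% of all tested genes. The median was -0.02, beside -0.01 over all genes. Here 5 of 9 FACIT genes rose and 1 fell, while 3 fibrillar genes rose and 4 fell, all 3 beaded filament genes fell and 2 of 3 transmembrane genes fell.

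Within knockout cells, SOX10 overexpression raised 18 collagen genes and lowered 13, against 28.1% of all tested genes in each direction. The median was 0.33, beside 0.00 over all genes. Of the FACIT genes 7 of 9 rose, 5 of 10 fibrillar genes rose and 4 fell, and the 3 beaded filament genes fell. The interaction asks whether the SOX10 effect differed between knockout and control cells. The signed effect was higher in knockout cells for 18 collagen genes and lower for 5, against 18.1% and 15.1% of all genes. The median interaction was 0.40 beside 0.02. Of these 18, 7 were FACIT and 6 fibrillar. Knockout cells with SOX10, set against control cells without it, had 13 genes higher and 13 lower, against 30.0% and 27.9% of all genes, with a median of 0.02 beside 0.01. Library-size scaling moves the all-gene median of that comparison from 0.01 to 0.16 and its collagen counts to 14 higher and 9 lower. Of all 21060 tested genes, 9156 are then called higher and 3295 lower. These comparisons share libraries, so they are not independent of each other.

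**Figure D2:**
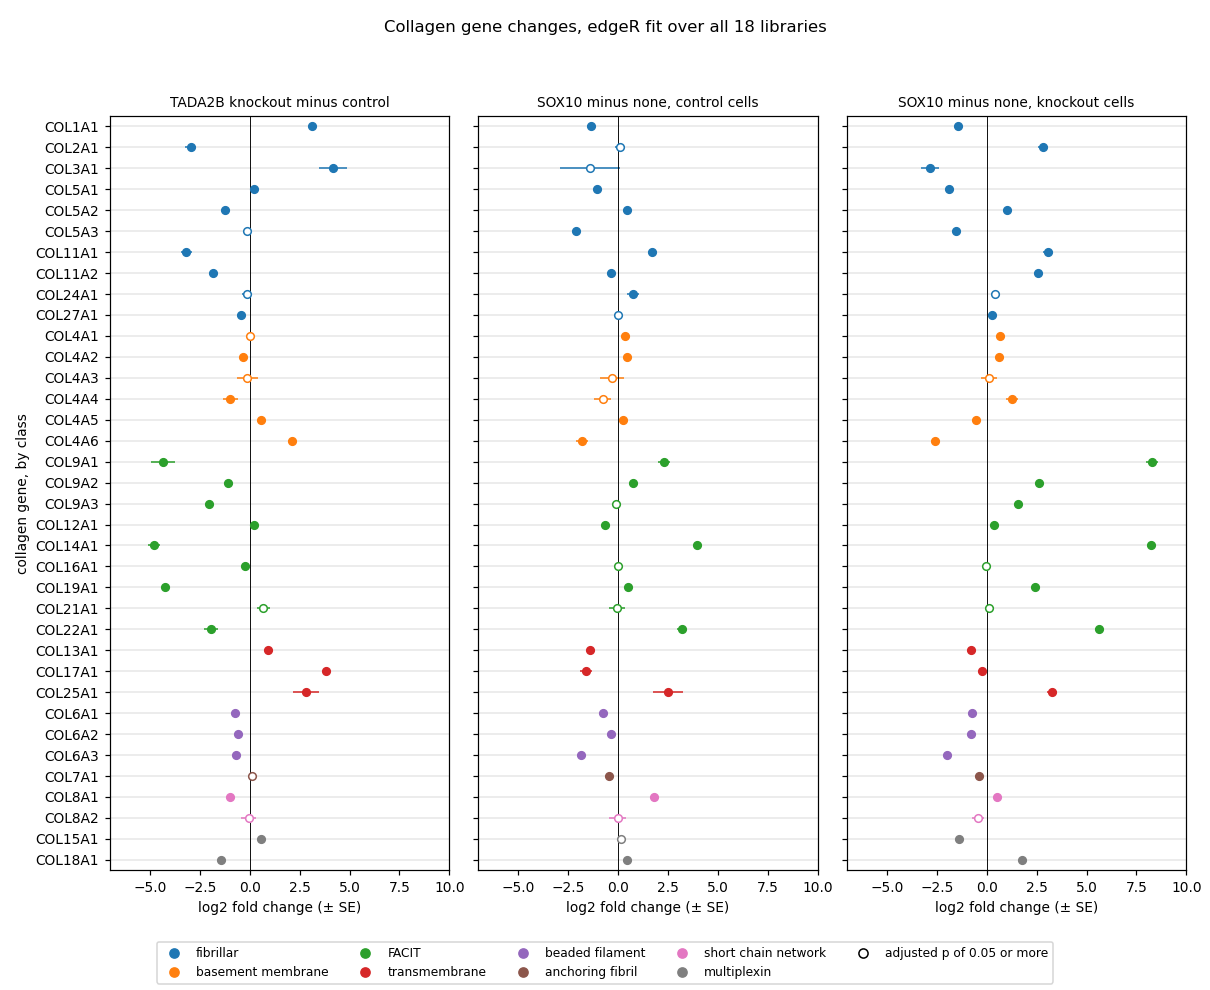
Log2 fold change of each tested collagen gene, ordered by class, in knockout against control and with SOX10 overexpression in control and in knockout cells; bars are the SE and open circles mark an adjusted p of 0.05 or more. COL3A1, COL9A1, COL14A1 and COL25A1 have few counts in at least 1 group, so their plotted values are fitted and depend on the prior count. COL19A1 at -4.24, COL1A1 at 3.12 and COL17A1 at 3.84 lie far from 0 in the knockout, and with library-size scaling COL4A1, COL7A1 and COL21A1 also count as higher there while COL4A4 and COL16A1 no longer count as lower.

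The FACIT collagens included some of the steepest falls of the family in the knockout. COL19A1 (ENSG00000082293, chr6:69866571-70209976, plus strand) encodes the chain of type XIX collagen, a minor collagen of basement membrane zones. It stood at 49.9, 47.9 and 51.4 CPM in control, 3.86, 3.31 and 4.02 in guide 1 and 2.11, 1.83 and 1.60 in guide 2. With SOX10 overexpression it reached 72.5, 72.6 and 67.8 in control, 20.8, 18.2 and 18.4 in guide 1 and 10.0, 10.5 and 9.98 in guide 2 cells. The 6 groups do not overlap anywhere: guide 2 is lowest, then guide 1, then both knockouts with SOX10, then control, with control plus SOX10 on top. The knockout change was -4.24 ± 0.06, an 18.9-fold fall (adjusted p = 2.95e-41). SOX10 raised it by 0.51 ± 0.05 in control and 2.41 ± 0.05 in knockout cells, and the difference of these effects was 1.90 ± 0.08 (adjusted p = 5.48e-23). Even with SOX10, knockout cells stayed 3.57-fold below control (adjusted p = 7.91e-31). Guide 2 lay 2.02-fold below guide 1 (adjusted p = 1.19e-10).

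The 3 chains of type IX collagen, a cartilage FACIT that decorates type II fibrils, form 1 trimer but were at very different levels. COL9A3 (ENSG00000092758, chr20:62816244-62841159, plus strand) was the most abundant, at 119, 109 and 115 CPM in control, 40.1, 35.7 and 38.1 in guide 1 and 23.1, 17.6 and 21.1 in guide 2. Its SOX10 groups held 112, 109 and 96.8 in control, 90.2, 85.3 and 110.4 in guide 1 and 73.8, 78.6 and 63.6 in guide 2 cells. Control and control plus SOX10 overlap, both knockout groups lie below them, and the knockouts with SOX10 lie in between, with 1 guide 1 plus SOX10 library inside the control range. The fall in the knockout was 4.08-fold (-2.03 ± 0.10, adjusted p = 3.48e-10), the SOX10 effect was -0.11 ± 0.11 in control (adjusted p = 0.494) and 1.56 ± 0.08 in knockout cells (adjusted p = 1.55e-09), and the interaction was 1.68 ± 0.14 (adjusted p = 5.18e-07).

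COL9A2 (ENSG00000049089, chr1:40300487-40317813, minus strand), the second chain, stood at 3.91, 3.20 and 3.66 CPM in control, 2.11, 1.83 and 1.61 in guide 1 and 1.24, 1.87 and 1.56 in guide 2. With SOX10 it stood at 5.87, 6.57 and 5.77 in control, 10.1, 10.5 and 12.7 in guide 1 and 9.46, 10.2 and 8.93 in guide 2 cells. Knockout cells with SOX10 were thus the highest of all groups, 2.87-fold above control (adjusted p = 6.77e-17), although the knockout alone was 2.12-fold below it (adjusted p = 2.24e-11). The SOX10 effect was 0.76 ± 0.11 in control and 2.61 ± 0.08 in knockout cells, with an interaction of 1.85 ± 0.14 (adjusted p = 5.73e-14). Per kilobase, COL9A3 exceeded COL9A2 by a factor of 27.9 ± 1.70 in control, 15.2 ± 1.18 in control plus SOX10, 18.1 ± 2.26 in guide 1, 7.46 ± 0.329 in guide 1 plus SOX10, 12.0 ± 4.00 in guide 2 and 6.58 ± 0.318 in guide 2 plus SOX10. The chain balance moved towards COL9A2 in each SOX10 group relative to its own guide.

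COL9A1 (ENSG00000112280, chr6:70215061-70303083, minus strand), the remaining chain, was scarce without SOX10 overexpression: 0.239, 0.0593 and 0.277 CPM in control, 0, 0.0139 and 0.0251 in guide 1 and 0, 0.0147 and 0 in guide 2. These are 38 counts over the 3 control libraries, 3 over guide 1 and 1 over guide 2. Its SOX10 groups stood at 0.996, 0.886 and 0.941 in control, 2.79, 2.05 and 2.84 in guide 1 and 3.56, 3.32 and 3.35 in guide 2 cells. Knockout cells with SOX10 were highest and every SOX10 library exceeded every library without it. The control to guide 1 ratio of level was 14.2 with a 95% counting interval of 4.51 to 72, and the control to guide 2 ratio was 44.6 (7.54 to 1810). The ratio of guide 1 plus SOX10 to guide 1 was 191 (65.1 to 930), and that of guide 2 plus SOX10 to guide 2 was 802 (144 to 31700). Such intervals cover counting error only. In control cells, where counts allow a fitted value, SOX10 changed COL9A1 by 2.29 ± 0.29 (adjusted p = 1.43e-08).

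COL9A1 and COL19A1 are neighbours on chromosome 6, with 5084 bases between the end of COL19A1 and the start of COL9A1 in coordinate order. The strand setting of the counting is not given, and exons of COL19A1 share 70 bases and those of COL9A3 share 45 bases with a gene on the opposite strand, LMBRD1 and TCFL5, which is under 1% of the exon length of each collagen gene (0.822% and 0.93%).

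COL14A1 (ENSG00000187955, chr8:120059780-120372036, plus strand) encodes type XIV collagen, which binds fibrils through decorin and other matrix partners. It stood at 0.760, 0.652 and 0.646 CPM in control, 0.0417, 0 and 0.0125 in guide 1 and 0.0239, 0.0147 and 0.0481 in guide 2, where the groups hold 137, 4 and 7 counts. SOX10 overexpression gave 10.8, 10.6 and 10.8 in control, 8.38, 8.18 and 6.97 in guide 1 and 7.07, 7.24 and 6.90 in guide 2 cells, so all 9 SOX10 libraries lie far above the 9 without. In control cells the SOX10 effect was 3.96 ± 0.13, a 15.6-fold rise (adjusted p = 1.64e-26). Knockout lowered COL14A1 by a fitted 4.79 log2 units (adjusted p = 6.43e-18) and SOX10 within knockout cells raised it by a fitted 8.23 (adjusted p = 2.96e-35), values that rest on few counts in the guide groups.

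COL22A1 (ENSG00000169436, chr8:138588235-138914006, minus strand), a FACIT of tissue junctions such as the muscle-tendon junction, was likewise low without SOX10 overexpression and high with it. Its libraries held 0.358, 0.178 and 0.307 CPM in control, 0.0139, 0.111 and 0.0878 in guide 1 and 0.0599, 0.0737 and 0.0842 in guide 2, and 2.40, 2.71 and 2.51, 3.60, 3.94 and 3.17 and 3.49, 3.09 and 4.22 with SOX10 in control, guide 1 and guide 2 cells. All SOX10 libraries exceeded all others, and the knockouts with SOX10 exceeded control plus SOX10. The SOX10 effect was 3.17 ± 0.22 in control and 5.60 ± 0.18 in knockout cells (adjusted p = 8.92e-16 and 4.52e-27). In the knockout alone it changed by -1.94 ± 0.34 (adjusted p = 3.88e-06) and the interaction was 2.43 ± 0.36 (adjusted p = 7.56e-07).

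COL12A1 (ENSG00000111799, chr6:75084326-75206051, minus strand), the type XII chain that links fibrils in tension-bearing tissue, was the FACIT gene that rose in the knockout. It stood at 97.0, 92.0 and 87.1 CPM in control, 100.2, 107 and 98.0 in guide 1 and 113, 111 and 115 in guide 2. Under SOX10 overexpression the level was 56.1, 58.4 and 57.3 in control, 120.5, 123 and 124 in guide 1 and 151, 153 and 169 in guide 2 cells. SOX10 thus went with less COL12A1 in control cells and more in both knockouts, with no overlap in either case. The effects were -0.68 ± 0.04 (adjusted p = 3.39e-17) and 0.38 ± 0.03 (adjusted p = 4.99e-15), and their difference was 1.06 ± 0.05 (adjusted p = 3.62e-20). The knockout change was small at 0.22 ± 0.03 (adjusted p = 5.67e-07).

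The last 2 tested FACIT genes were COL16A1 and COL21A1. COL16A1 averaged 7.78 CPM in guide 1, its lowest group mean, and 9.37 in both control and control plus SOX10, its highest, and its small fall in the knockout (-0.21, adjusted p = 0.0229) was not called with library-size scaling (-0.059, adjusted p = 0.564) or without control replicate 1 (adjusted p = 0.169), control replicate 3 (0.0672) or guide 2 replicate 2 (0.0627). COL21A1 stayed under 0.7 CPM in every library, and its knockout value of 0.69 had an adjusted p of 0.0683 (0.844 and 0.0237 with library-size scaling). It was higher in guide 1 than in control (1.22, adjusted p = 0.00336) and lower in guide 2 than in guide 1 (-1.06, adjusted p = 0.0407), but the guide difference was not called without the low-count filter (adjusted p = 0.0517), without guide 1 replicate 2 (0.23) or 3 (0.0755), or without any 1 guide 2 library (0.0721 to 0.122).

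**Figure D3:**
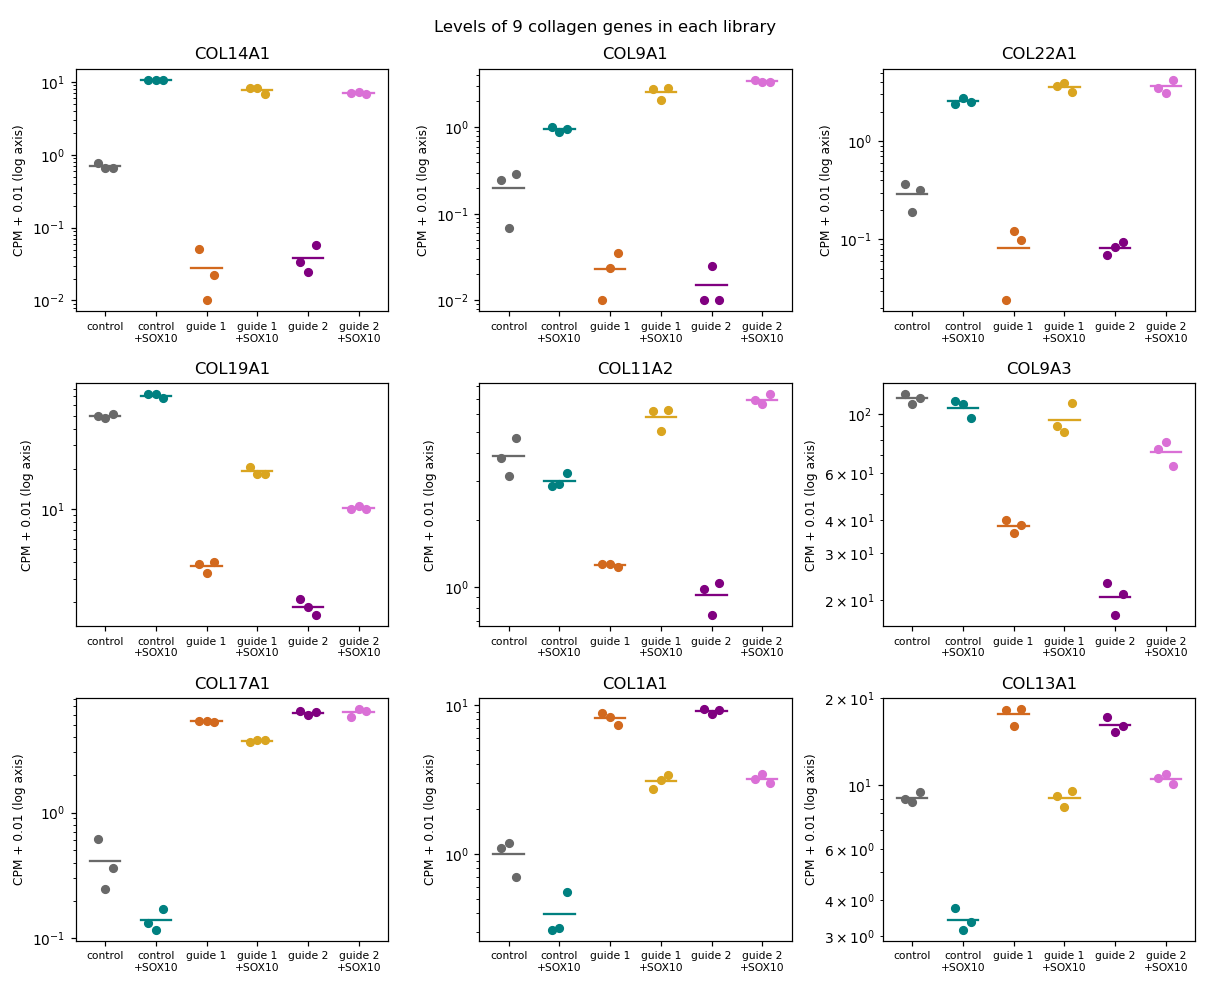
Level of 9 collagen genes in every library, in CPM plus 0.01 on a log axis, with the 6 groups side by side; horizontal lines are group means. COL14A1, COL9A1 and COL22A1 are low without SOX10 overexpression and high in all 9 libraries with it. COL19A1 and COL9A3 are lowest in the knockouts without SOX10 overexpression, where COL1A1 is highest. COL17A1 is higher in every knockout group than in both groups with the control guide.

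Promoter sequences were read from RefSeq (GRCh38.p14) for the collagen genes in that table, 32 of 44. In the 250 bases before each start, 5 short motifs were searched on both strands. ACAAAG holds the core letters known to be bound by SOX proteins. A variant of that core is ACAATG. The others were the GC box (GGGCGG), the CCAAT box and, by its letters TATAAA, the box of that name. Among the collagen genes, the first of these motifs was present for 5 of 32, in 6 of their 44 windows (13.6%), while 13.7% of all 35116 promoter windows hold it. ACAATG was in 1 of the 44 collagen windows (2.27%, against 9.29% of all windows), GGGCGG in 24 (54.5% against 42.6%), CCAAT in 12 (27.3% against 32%) and TATAAA in 8 (18.2% against 10.7%). A match of letters is a description and not a binding site, and the data hold no binding measurement.

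The 4 stretches below are shown as examples, chosen after the values were seen, from genes whose levels moved with TADA2B and SOX10: COL19A1, COL9A1 and COL9A2, lower in the knockout and higher with SOX10, and COL17A1, higher in the knockout. Each begins 250 bases before the RefSeq start, runs 5′ to 3′ on the gene's strand and stops before the first annotated exon met in that window, and capitals mark the motifs. By GENCODE 29, the COL9A2 stretch lies inside the gene, between exons, since that annotation has a start further upstream, and the other 3 lie outside their genes. COL17A1 spans chr10:104085958-104086130, minus strand (173 bases), COL9A2 chr1:40317389-40317536, minus strand (148 bases), COL19A1 chr6:69866306-69866470, plus strand (165 bases) and COL9A1 chr6:70303085-70303334, minus strand (250 bases).
COL17A1: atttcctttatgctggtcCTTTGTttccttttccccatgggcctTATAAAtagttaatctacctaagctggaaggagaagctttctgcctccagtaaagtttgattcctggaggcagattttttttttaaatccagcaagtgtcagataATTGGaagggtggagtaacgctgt
COL9A2: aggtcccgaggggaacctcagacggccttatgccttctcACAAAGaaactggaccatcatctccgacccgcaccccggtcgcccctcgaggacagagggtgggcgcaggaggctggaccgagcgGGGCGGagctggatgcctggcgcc
COL19A1: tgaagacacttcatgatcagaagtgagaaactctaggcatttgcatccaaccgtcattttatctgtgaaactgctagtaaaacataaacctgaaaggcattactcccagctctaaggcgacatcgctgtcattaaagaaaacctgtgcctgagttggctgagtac
COL9A1: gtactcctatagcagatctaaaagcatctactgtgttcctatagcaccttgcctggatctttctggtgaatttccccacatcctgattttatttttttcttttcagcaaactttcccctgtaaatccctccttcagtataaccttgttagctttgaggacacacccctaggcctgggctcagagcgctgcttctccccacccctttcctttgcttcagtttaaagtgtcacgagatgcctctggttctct
In COL17A1 the capitals CTTTGT are ACAAAG read on the other strand, at -232 from the start, followed by TATAAA at -206 and ATTGG, which is CCAAT on the other strand, at -101. COL9A2 holds ACAAAG at -211 and GGGCGG at -126. The searched windows run on past these printed stretches. There COL17A1 holds a further ACAAAG at -63, and COL9A2 holds GGGCGG at -47 and -42, all on the other strand. None of the 5 motifs lies in the printed stretches of COL19A1 and COL9A1, which says only that these letters are not in these windows. COL9A1 has a second window in the table, not shown, which holds CCAAT.

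Fibrillar collagens split by chain. COL1A1 (ENSG00000108821, chr17:50183289-50201632, minus strand), the main chain of type I collagen, stood at 1.09, 1.17 and 0.692 CPM in control, 8.83, 8.26 and 7.29 in guide 1 and 9.40, 8.64 and 9.25 in guide 2. With SOX10 it stood at 0.300, 0.309 and 0.544 in control, 2.72, 3.12 and 3.38 in guide 1 and 3.16, 3.42 and 2.98 in guide 2 cells. Both knockouts lie well above control with no overlap, and SOX10 lowers the gene in each background. The knockout rise was 8.70-fold (3.12 ± 0.13, adjusted p = 2.09e-23), and the SOX10 effect was -1.37 ± 0.21 in control and -1.46 ± 0.08 in knockout cells (adjusted p = 1.45e-06 and 7.55e-19). The interaction was -0.09 ± 0.25 (adjusted p = 0.835), so a difference between these effects was not detected.

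Its trimer partner COL1A2 (ENSG00000164692, chr7:94394561-94431232, plus strand) was not tested, since it held 62 counts over the 18 libraries. Its libraries held 0.104, 0.178 and 0 CPM in control, 0, 0.0831 and 0.0376 in guide 1 and 0.0239, 0.0442 and 0.0722 in guide 2, and 0.0136, 0.0403 and 0.0147, 0, 0.0130 and 0.0270 and 0.0244, 0.0957 and 0.0986 with SOX10. The highest of these values is 12 counts, and all 6 groups overlap. COL3A1, the type III chain, is given after its values were seen. It stood at 0.0149, 0 and 0.0307 CPM in control, 0.292, 0.277 and 0.201 in guide 1 and 0.323, 0.472 and 0.277 in guide 2, which is 3, 57 and 82 counts per group, so it rose in the knockout (adjusted p = 3.09e-06) from a level near the floor. With SOX10 the groups held 1, 9 and 9 counts in control, guide 1 and guide 2 cells, and SOX10 lowered it within knockout cells (adjusted p = 5.57e-07).

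Type V collagen, which joins type I fibrils and limits their width, is built mainly from COL5A1 and COL5A2 chains, and these moved in opposite directions. COL5A2 (ENSG00000204262, chr2:189031896-189225312, minus strand) stood at 203, 201 and 202 CPM in control, 98.9, 89.1 and 91.5 in guide 1 and 82.9, 72.7 and 74.9 in guide 2, and at 285, 271 and 271, 207, 210.3 and 214 and 146, 146 and 139.5 with SOX10 in control, guide 1 and guide 2 cells. COL5A1 (ENSG00000130635, chr9:134641774-134844843, plus strand) stood at 69.7, 67.3 and 68.9 CPM in control, 93.3, 82.9 and 84.5 in guide 1 and 78.4, 71.1 and 74.2 in guide 2, and at 34.2, 33.4 and 31.9, 21.1, 22.9 and 23.4 and 21.0, 20.2 and 21.5 with SOX10 in the same order. COL5A2 was thus lower in the knockouts and higher with SOX10, while COL5A1 was slightly higher in the knockouts and far lower with SOX10, with no overlap between a group and its own control in any of these pairs.

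The knockout lowered COL5A2 2.38-fold (-1.25 ± 0.03, adjusted p = 3.53e-28) and raised COL5A1 by 0.23 ± 0.04 (adjusted p = 9.7e-07). SOX10 in knockout cells raised COL5A2 by 1.04 ± 0.03 (adjusted p = 8.58e-28) and changed COL5A1 by -1.89 ± 0.03 (adjusted p = 5.75e-37). In control cells the SOX10 effects were 0.45 ± 0.04 and -1.05 ± 0.04, and the interactions were 0.59 ± 0.04 and -0.85 ± 0.06 (adjusted p = 3.74e-13 and 3.03e-16). The ratio of COL5A1 to COL5A2 per kilobase was 0.229, 0.223 and 0.227 in the control libraries, 0.629, 0.620 and 0.615 in guide 1 and 0.630, 0.652 and 0.660 in guide 2. With SOX10 it was 0.0799, 0.0820 and 0.0784 in control, 0.0679, 0.0725 and 0.0728 in guide 1 and 0.0958, 0.0925 and 0.103 in guide 2 cells. COL5A2 exceeded COL5A1 in every library, by the least in the knockouts without SOX10. The small deficit of COL5A2 in knockout cells with SOX10 against control (-0.21, adjusted p = 2.63e-07) was not called with library-size scaling (-0.0678, adjusted p = 0.07).

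**Figure D4:**
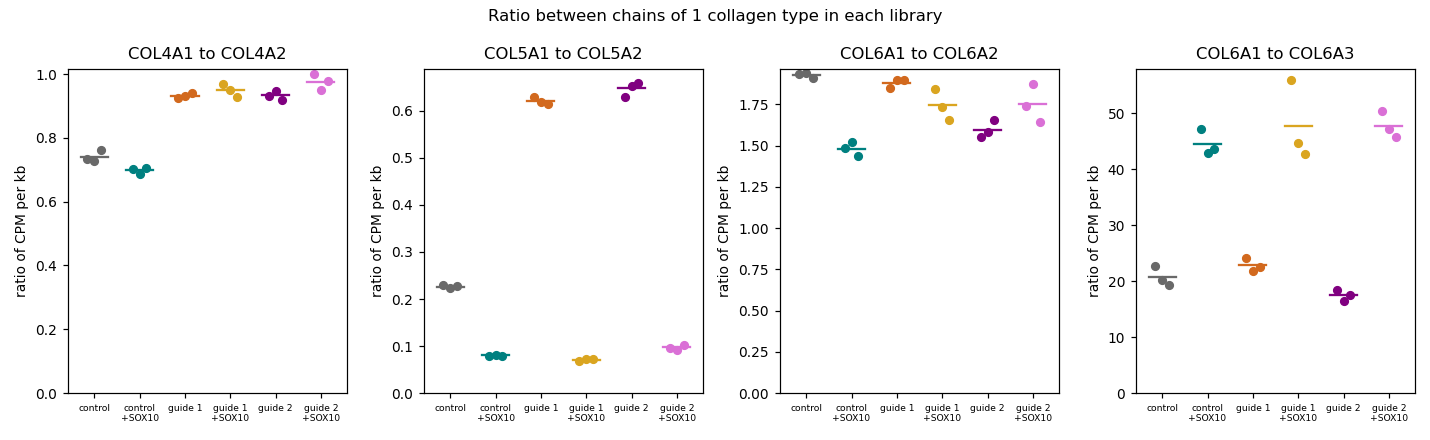
Ratio of the levels per kilobase of 4 pairs of collagen chains in each library, on axes from 0, by group; horizontal lines are group means. COL5A1 to COL5A2 averages 0.227 in control, is 0.621 and 0.648 in the knockouts and averages 0.0801, 0.0711 and 0.0970 in the 3 SOX10 groups, while COL6A1 to COL6A3 averages between 44.5 and 47.8 with SOX10 and between 17.5 and 22.9 without.

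COL5A3 (ENSG00000080573, chr19:9959561-10010471, minus strand), the less common type V chain, stood at 15.3, 14.2 and 15.1 CPM in control, 16.1, 13.9 and 14.2 in guide 1 and 13.6, 10.2 and 12.3 in guide 2. In the SOX10 groups the level was 3.68, 3.46 and 3.10 in control, 4.95, 5.25 and 6.02 in guide 1 and 4.05, 4.25 and 3.71 in guide 2 cells. The control and guide 1 libraries overlap, and the SOX10 libraries lie below all others. SOX10 lowered it 4.34-fold in control (-2.12 ± 0.10) and 2.86-fold in knockout cells (-1.52 ± 0.07), with an interaction of 0.60 ± 0.12 (adjusted p = 6.56e-05). Its knockout value was -0.16 ± 0.07 (adjusted p = 0.0625). By guide, the value was -0.01 in guide 1 (adjusted p = 0.918) and -0.30 in guide 2 (adjusted p = 0.00238). The value over both guides was called without guide 1 replicate 1 (-0.192, adjusted p = 0.0259) or guide 2 replicate 1 (-0.206, adjusted p = 0.0119).

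Type XI collagen, a cartilage collagen related to type V, is represented by COL11A1 and COL11A2. COL11A2 (ENSG00000204248, chr6:33162681-33192499, minus strand) stood at 3.80, 3.16 and 4.69 CPM in control, 1.26, 1.26 and 1.22 in guide 1 and 0.970, 0.737 and 1.03 in guide 2, and at 2.82, 2.90 and 3.25, 6.18, 5.01 and 6.24 and 6.91, 6.63 and 7.36 with SOX10 in control, guide 1 and guide 2 cells. The knockout lowered it 3.61-fold (adjusted p = 1.66e-17). Within knockout cells SOX10 raised it 5.92-fold (adjusted p = 3.47e-25), to 1.64 times the control level. In control cells the SOX10 libraries overlap the control libraries, and the change of -0.38 (adjusted p = 0.0154) was not called when control replicate 3 (-0.22, adjusted p = 0.225), control plus SOX10 replicate 1 (-0.336, adjusted p = 0.0693) or its replicate 2 (-0.355, adjusted p = 0.0557) was left out. The interaction was 2.94 ± 0.16 (adjusted p = 6.9e-19).

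COL11A1 (ENSG00000060718, chr1:102876467-103108872, minus strand) stood at 0.522, 0.756 and 0.784 CPM in control, 0.0278, 0.0831 and 0.0753 in guide 1 and 0.0958, 0.0590 and 0.108 in guide 2, and at 2.32, 2.11 and 2.35, 0.854, 0.624 and 0.836 and 0.719, 0.478 and 0.394 with SOX10. Every knockout library without SOX10 lies below every control library, and control plus SOX10 lies above all. The knockout change was -3.17 ± 0.28 (adjusted p = 6.72e-13), the SOX10 effect 1.72 ± 0.22 in control and 3.08 ± 0.25 in knockout cells, and the interaction 1.36 ± 0.35 (adjusted p = 0.0019). COL2A1, the type II chain of cartilage and the usual partner of types IX and XI, is given after its values were seen: 0.581, 0.771 and 0.769 CPM in control, 0.125, 0.111 and 0.138 in guide 1, 0.0958, 0.0442 and 0.0481 in guide 2, and 0.805, 0.792 and 0.662, 0.647, 0.468 and 1.02 and 0.610, 0.574 and 0.559 with SOX10. It fell 7.78-fold in the knockout (adjusted p = 8.09e-12) and rose 7.08-fold with SOX10 in knockout cells (adjusted p = 8.41e-13), while the SOX10 effect in control cells was 0.09 ± 0.26 (adjusted p = 0.836). The interaction was 2.73 ± 0.37 (adjusted p = 1.31e-07).

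Of the other 2 tested fibrillar genes, COL27A1, also named after its values were seen, averaged 57.4 ± 4.61 CPM (SD, n = 3) in control, 43.2 ± 1.20 in guide 1 and 42.0 ± 2.73 in guide 2. It fell by 0.43 on the log2 scale in the knockout (adjusted p = 4.86e-07), had a SOX10 effect of 0.28 ± 0.04 in knockout cells and an interaction of 0.28 (adjusted p = 0.00672). COL24A1 had group means between 0.446 and 0.885 CPM and rose with SOX10 in control cells (0.75 ± 0.28, adjusted p = 0.0359). That call was not made without control replicate 1 (0.566, adjusted p = 0.178), control replicate 3 (0.782, adjusted p = 0.0632), control plus SOX10 replicate 1 (0.575, adjusted p = 0.182) or its replicate 3 (0.65, adjusted p = 0.122).

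Among basement membrane collagens, COL4A1 and COL4A2 are the chains of the common type IV network and are transcribed in opposite directions from starts 126 bases apart. Both are given after their values were seen. COL4A1 stood at 272, 266 and 292 CPM in control, 298, 274 and 282 in guide 1 and 294, 253 and 272 in guide 2, and at 369, 345 and 340.1, 437, 459 and 482 and 444, 442 and 418 with SOX10. COL4A2 stood at 486, 480.3 and 501 CPM in control, 422, 385 and 392 in guide 1 and 413, 349.7 and 388 in guide 2, and at 689.8, 657 and 632, 589.8, 633 and 681 and 581, 609 and 560.1 with SOX10. For COL4A1 the control and knockout libraries overlap, whereas for COL4A2 all 6 knockout libraries lie below control, and all SOX10 libraries of both genes lie above their own guide's libraries.

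COL4A2 fell by 0.32 on the log2 scale in the knockout (adjusted p = 0.000205). The value of COL4A1 was 0.01 ± 0.05 (adjusted p = 0.868), but with library-size scaling it was called higher (0.167, adjusted p = 0.00894). SOX10 raised COL4A1 by 0.35 ± 0.06 in control and 0.68 ± 0.04 in knockout cells (adjusted p = 0.000128 and 3.34e-10), and COL4A2 by 0.43 ± 0.06 and 0.64 ± 0.05 (adjusted p = 0.000124 and 3.01e-08). The COL4A1 to COL4A2 ratio per kilobase, which does not depend on the scaling, was 0.733, 0.726 and 0.761 in the control libraries and 0.701, 0.688 and 0.704 with SOX10. In the knockouts it was 0.924, 0.930 and 0.940 in guide 1, 0.970, 0.949 and 0.927 in guide 1 plus SOX10, 0.932, 0.947 and 0.920 in guide 2 and 1.00, 0.949 and 0.978 in guide 2 plus SOX10. All 12 knockout libraries therefore lie above all 6 libraries with the control guide.

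COL4A6 (ENSG00000197565, chrX:108155607-108439497, minus strand), a chain of the smooth muscle and epidermal type IV network, stood at 0.820, 0.890 and 0.630 CPM in control, 3.44, 3.59 and 3.27 in guide 1 and 3.61, 2.63 and 3.54 in guide 2. Its levels with SOX10 were 0.437, 0.0940 and 0.132 in control, 0.492, 0.676 and 0.445 in guide 1 and 0.463, 0.629 and 0.625 in guide 2 cells. The knockouts lie above all other groups. The rise was 4.28-fold (2.10 ± 0.20, adjusted p = 2.2e-11), and SOX10 changed it by -1.81 ± 0.31 in control and -2.60 ± 0.16 in knockout cells (adjusted p = 1.47e-05 and 2.47e-16). The interaction was -0.79 ± 0.38 (adjusted p = 0.111). It was called without control plus SOX10 replicate 2 (-1.16, adjusted p = 0.0147) or replicate 3 (-1.04, adjusted p = 0.047). Without replicate 1 of that group its sign changed (0.186, adjusted p = 0.78).

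Its partner COL4A5, with a start 379 or 1415 bases from those of COL4A6 on the opposite strand, is given after its values were seen. It averaged 5.93 ± 0.392 CPM (SD, n = 3) in control, 9.73 ± 0.482 in guide 1 and 7.70 ± 0.435 in guide 2, and 7.03 ± 0.589, 7.27 ± 0.680 and 4.92 ± 0.450 with SOX10. It rose by 0.55 in the knockout (adjusted p = 7.24e-08) and fell by 0.53 with SOX10 in knockout cells (adjusted p = 6.5e-10). The SOX10 rise in control cells (0.25, adjusted p = 0.0285) was not called without control replicate 1 (adjusted p = 0.0634), control replicate 3 (0.139) or control plus SOX10 replicate 1 (0.195). COL4A3 and COL4A4, the kidney and lung chains, stayed under 0.6 CPM in every library. COL4A4 was lower in the knockout (-0.97, adjusted p = 0.0241), a call not made with library-size scaling (-0.812, adjusted p = 0.0572), without control replicate 2 (-0.766, adjusted p = 0.14) or without guide 1 replicate 2 (-0.789, adjusted p = 0.0614).

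The transmembrane collagens rose in the knockout. COL17A1 (ENSG00000065618, chr10:104031286-104085957, minus strand), the hemidesmosomal collagen of basal keratinocytes, stood at 0.611, 0.237 and 0.354 CPM in control, 5.36, 5.36 and 5.22 in guide 1 and 6.38, 5.99 and 6.29 in guide 2. With SOX10 it stood at 0.123, 0.107 and 0.162 in control, 3.61, 3.73 and 3.79 in guide 1 and 5.75, 6.66 and 6.39 in guide 2 cells. All 12 knockout libraries, with or without SOX10, lie above all 6 others. The knockout change was 3.84 ± 0.15, a 14.3-fold rise (adjusted p = 1.16e-24), and knockout cells with SOX10 stayed 12.0-fold above control (adjusted p = 2.77e-23). SOX10 changed it by -1.61 ± 0.30 in control (adjusted p = 3.49e-05), by -0.52 ± 0.11 in guide 1 cells (adjusted p = 0.000171) and by 0.01 ± 0.11 in guide 2 cells (adjusted p = 0.957). The difference between the guides' SOX10 effects was not tested. The interaction over both guides was 1.36 ± 0.32 (adjusted p = 0.000686).

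Markers of keratinocytes were set beside COL17A1. Their sum was 46.9 to 49.3 CPM in control, 47.7 to 50.01 in guide 1 and 48.2 to 50.2 in guide 2, of which KRT10 gave most. Of the 9 markers 4 were tested, and 3 rose and 1 fell in the knockout, where 28.6% of all tested genes rose and 29.5% fell. KRT5 averaged 0.161, 0.761 and 0.488 CPM in control, guide 1 and guide 2, KRT14 5.41, 1.18 and 0.368, and TP63 and CDH1 at most 0.0412 CPM in any group. No marker of the list was at 0 in all libraries. Their part in the COL17A1 rise was not tested.

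COL13A1 (ENSG00000197467, chr10:69801867-69964275, plus strand), a transmembrane collagen of adhesion sites, stood at 8.99, 8.73 and 9.45 CPM in control, 18.3, 16.1 and 18.4 in guide 1 and 17.2, 15.3 and 16.1 in guide 2, and at 3.74, 3.16 and 3.35, 9.16, 8.37 and 9.53 and 10.6, 11.0 and 10.1 with SOX10. Knockouts lie above control and SOX10 groups lie below their own guide, with no overlap. The knockout rise was 1.86-fold (adjusted p = 8.99e-16), and SOX10 changed it by -1.41 ± 0.08 in control and -0.79 ± 0.05 in knockout cells, with an interaction of 0.62 ± 0.10 (adjusted p = 2.43e-06). Knockout cells with SOX10 differed from control by 0.11 (adjusted p = 0.155), a value called higher with library-size scaling (0.255, adjusted p = 0.00087).

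COL25A1 (ENSG00000188517, chr4:108808725-109302752, minus strand), known as the precursor of a component of amyloid plaques, was close to the floor in control at 0.0298, 0 and 0.0154 CPM, which is 3 counts. It stood at 0.0555, 0.125 and 0.138 in guide 1 and 0.108, 0.192 and 0.0962 in guide 2, and at 0.0955, 0.0403 and 0.147, 1.16, 1.18 and 0.862 and 1.34, 1.15 and 1.18 with SOX10 in control, guide 1 and guide 2 cells. The knockouts with SOX10 are the only groups near 1 CPM. Ratios to control with 95% counting intervals were 7.13 (2.17 to 37) for guide 1, 8.51 (2.65 to 43.6) for guide 2 and 6.17 (1.83 to 32.4) for control plus SOX10. The last of these was called over all libraries (adjusted p = 0.00825) but not without control replicate 2 (adjusted p = 0.0569) or control plus SOX10 replicate 3 (0.0672). In knockout cells SOX10 raised COL25A1 9.63-fold (adjusted p = 2.87e-15).

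The type VI chains COL6A1, COL6A2 and COL6A3, which assemble into 1 heterotrimer, fell in each comparison with control. COL6A1 (ENSG00000142156, chr21:45981737-46005050, plus strand) stood at 122, 113 and 118 CPM in control, 83.8, 78.5 and 80.3 in guide 1 and 65.3, 56.4 and 62.7 in guide 2, and at 73.8, 70.2 and 67.7, 44.0, 43.3 and 48.3 and 38.3, 40.8 and 37.1 with SOX10. COL6A2 (ENSG00000142173, chr21:46098097-46132849, plus strand) stood at 63.5, 58.6 and 62.6 CPM in control, 45.8, 41.7 and 42.6 in guide 1 and 42.5, 35.9 and 38.1 in guide 2, and at 50.2, 46.5 and 47.4, 24.1, 25.2 and 29.4 and 22.2, 21.9 and 22.7 with SOX10. COL6A3 (ENSG00000163359, chr2:237324003-237414375, minus strand) stood at 19.8, 20.6 and 22.5 CPM in control, 12.7, 13.2 and 13.1 in guide 1 and 13.1, 12.6 and 13.1 in guide 2, and at 5.76, 6.02 and 5.71, 2.88, 3.56 and 4.15 and 2.79, 3.17 and 2.98 with SOX10. For each chain the knockout libraries lie below control, and every SOX10 group lies below its own guide.

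The knockout changes of COL6A1, COL6A2 and COL6A3 were -0.74 ± 0.04, -0.58 ± 0.05 and -0.69 ± 0.06 (adjusted p = 4.44e-16, 5.31e-11 and 1.21e-12). SOX10 in control cells changed them by -0.74 ± 0.05, -0.36 ± 0.06 and -1.85 ± 0.08. In knockout cells SOX10 lowered them 1.69-fold, 1.70-fold and 4.00-fold. The interaction was -0.01 ± 0.06 for COL6A1 (adjusted p = 0.888), -0.41 ± 0.07 for COL6A2 (adjusted p = 6.2e-05) and -0.15 ± 0.10 for COL6A3 (adjusted p = 0.272). Knockout cells with SOX10 were 2.81-fold, 2.55-fold and 6.47-fold below control. The fall with SOX10 was steeper for COL6A3, so COL6A1 exceeded COL6A3 per kilobase by 20.7 ± 1.74 in control and 44.5 ± 2.28 in control plus SOX10, by 22.9 ± 1.22 in guide 1 and 47.8 ± 7.17 with SOX10, and by 17.5 ± 0.936 in guide 2 and 47.8 ± 2.36 with SOX10.

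Of the remaining classes, COL8A1 (ENSG00000144810, chr3:99638475-99799226, plus strand), a short-chain collagen of vessel walls and Descemet's membrane, stood at 11.1, 12.3 and 12.4 CPM in control, 6.03, 5.83 and 5.33 in guide 1 and 6.62, 5.94 and 5.93 in guide 2. The SOX10 libraries held 42.3, 39.8 and 40.1 in control, 8.47, 8.84 and 9.27 in guide 1 and 8.64, 8.71 and 7.64 in guide 2 cells. Control plus SOX10 stands far above every other group. SOX10 raised it 3.42-fold in control (1.77 ± 0.06) and 1.45-fold in knockout cells (0.53 ± 0.05), with an interaction of -1.24 ± 0.08 (adjusted p = 3.75e-16), and the knockout lowered it 2.01-fold (adjusted p = 3.04e-18).

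The multiplexins moved apart. COL18A1 (ENSG00000182871, chr21:45405137-45513720, plus strand), the source of endostatin, stood at 16.0, 14.8 and 17.0 CPM in control, 7.37, 6.00 and 6.49 in guide 1 and 6.10, 4.99 and 5.15 in guide 2, and at 22.4, 22.0 and 20.4, 19.8, 20.2 and 21.3 and 19.8, 22.3 and 17.9 with SOX10. COL15A1 (ENSG00000204291, chr9:98943179-99070792, plus strand) stood at 2.49, 2.24 and 1.89 CPM in control, 3.04, 3.08 and 2.81 in guide 1 and 3.48, 3.69 and 3.84 in guide 2, and at 2.11, 2.93 and 2.38, 1.13, 1.87 and 1.27 and 1.18, 0.957 and 1.22 with SOX10. Against control the knockouts hold less COL18A1 and more COL15A1, and SOX10 goes with more COL18A1 and less COL15A1 in each knockout, with no overlap in any of these pairs.

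COL18A1 fell 2.66-fold in the knockout (-1.41 ± 0.07, adjusted p = 6.99e-20) and rose 3.38-fold with SOX10 in knockout cells (1.76 ± 0.06), with an interaction of 1.32 ± 0.09 (adjusted p = 3.18e-14). COL15A1 rose by 0.58 ± 0.13 in the knockout (adjusted p = 0.000165) and changed by -1.39 ± 0.11 with SOX10 in knockout cells, against 0.17 ± 0.15 in control cells (adjusted p = 0.444), an interaction of -1.55 ± 0.19 (adjusted p = 7.03e-09). Exons of COL18A1 share 1401 bases, 16.4% of its exon length, with SLC19A1 on the opposite strand, so its counts could include reads of that gene. COL7A1, the anchoring fibril collagen of the skin, is given after its values were seen: it averaged 5.84 ± 0.573 CPM in control (SD, n = 3) and fell with SOX10 by 0.48 in control and 0.39 in knockout cells (adjusted p = 0.00112 and 5.62e-05). Its knockout value was 0.10 (adjusted p = 0.403), called higher with library-size scaling (0.254, adjusted p = 0.0266).

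The 2 guides differed for part of the family. Guide 2 cells had 1 collagen gene higher and 9 lower than guide 1 cells, against 2.65% and 6.09% of all tested genes, with a median of -0.09 beside -0.00 over all genes. The gene higher in guide 2 was COL12A1 (0.15, adjusted p = 0.00653), which was not called without guide 1 replicate 3 (0.124, adjusted p = 0.0663). The lower ones included COL19A1 (-1.02), COL9A3 (-0.88), COL6A1 (-0.39), COL5A2 (-0.28) and COL5A1 (-0.22), with adjusted p-values from 1.19e-10 to 0.000425. For COL5A1 the knockout rise was 0.34 in guide 1 (adjusted p = 5.61e-09) and 0.12 in guide 2 (adjusted p = 0.0142). The calls for COL5A3 (-0.29, adjusted p = 0.0211), COL18A1 (-0.29, adjusted p = 0.0351) and COL4A5 (-0.34, adjusted p = 0.00526) were lost when guide 1 replicate 1 was left out, with adjusted p-values of 0.203, 0.277 and 0.0534. Leaving out guide 2 replicate 2 also ended the calls for COL5A3 (0.191) and COL18A1 (0.15), and that for COL18A1 was lost without guide 1 replicate 3 (0.0686) or guide 2 replicate 3 (0.161) and with library-size scaling (0.053) as well. A fit on the guide 1 and guide 2 groups alone did not call COL5A3 (0.0575) or COL18A1 (0.0971) either. Guide 2 cells also held less SOX10 (43.4 against 83.6 CPM), and the part of that difference in these values was not tested.

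Other genes of collagen biology were read from lists of folding enzymes, processing enzymes, receptors and degrading enzymes. Of 22 genes for folding and modification of collagen, 9 rose and 11 fell in the knockout, against 28.6% and 29.5% of all tested genes. CREB3L1, a membrane-bound transcription factor known to drive type I collagen secretion programmes, rose by 3.68 ± 0.19 (adjusted p = 1.56e-20), from 0.283, 0.430 and 0.184 CPM in control to 4.29, 3.71 and 4.02 in guide 1 and 3.52, 3.60 and 4.11 in guide 2. The prolyl 3-hydroxylase P3H2 rose by 1.60 and the prolyl 4-hydroxylase subunit P4HA3 by 0.68, while P4HA1 (-0.73) and the lysyl hydroxylase PLOD3 (-0.74) fell. SOX10 in knockout cells lowered CREB3L1 (-2.06) and raised P4HA1 (0.73), with 9 of the 22 genes higher and 6 lower, against 28.1% of all tested genes in each direction.

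Of 13 tested genes for procollagen processing and crosslinking, 7 rose and 4 fell in the knockout (28.6% and 29.5% of all tested genes). The tolloid proteases TLL1 (3.88) and TLL2 (2.57) and the transglutaminase TGM2 (3.05) rose, and the lysyl oxidases LOXL3 (-2.35) and LOXL4 (-1.14) fell. TGM2 went from 135, 141 and 146 CPM in control to 1079, 1052 and 1085 in guide 1 and 1326, 1174 and 1320.1 in guide 2, and SOX10 in knockout cells lowered it by 0.82. With SOX10 in control cells 7 of the 13 rose and 2 fell (17.3% and 17.2% of all), and in knockout cells 6 rose and 5 fell (28.1% of all each way).

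Among 12 tested collagen receptors 5 rose and 5 fell in the knockout, beside the same all-gene shares of 28.6% and 29.5%. The integrin chains ITGA11 (1.68) and ITGA2 (1.28), partners of the beta1 chain in collagen binding, and the adhesion receptor ADGRG6 (1.17), known to bind type IV collagen, rose, and the endocytic collagen receptor MRC2 (-1.01) and the receptor kinase DDR1 (-0.76) fell. SOX10 in knockout cells lowered ITGA11 (-2.70) and ITGA2 (-1.58), with 4 of the 12 receptors higher and 8 lower (28.1% of all each way). Of 10 collagen-degrading enzymes 5 rose and 4 fell in the knockout, beside those shares: the interstitial collagenases MMP1 (3.10) and MMP13 (2.27) and the surface protease FAP (3.12) rose, and MMP8 (-5.18) and MMP15 (-2.15) fell. With SOX10 in knockout cells MMP1 (-4.42), MMP13 (-2.13) and FAP (-2.03) fell, and MMP8 (4.61) and MMP15 (2.84) rose. There 4 of the 10 enzymes were higher and 6 lower (28.1% of all each way). In control cells SOX10 raised 6 and lowered 4 of them (17.3% and 17.2% of all). In those cells FAP (1.68) and MMP15 (2.70) rose, and MMP1 (-2.14) and MMP13 (-1.57) fell. Every gene named from these lists had an adjusted p under 0.05 for the value given.

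The SOXE and SOXD factors, which act on cartilage collagen genes in chondrocytes, also moved. SOX9 rose by 3.20 ± 0.09 in the knockout (adjusted p = 2.94e-29), at 2.31, 2.12 and 2.08 CPM in control, 19.2, 21.0 and 19.1 in guide 1 and 21.8, 20.1 and 18.2 in guide 2, and fell by 3.18 with SOX10 in knockout cells. SOX5 (-2.39) and SOX6 (-2.90) fell in the knockout, and SOX6 rose by 2.79 with SOX10 in control and 5.68 in knockout cells.

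Markers of fibroblasts and mural cells were set beside COL1A1 and COL3A1, since those cells make both chains. Of the 15 markers 11 rose and 3 fell in the knockout (28.6% and 29.5% of all tested genes), and their summed level ran from 62.6 to 67.7 CPM in control, 137.6 to 140.2 in guide 1 and 153 to 156 in guide 2. With SOX10 the sum ran from 62.8 to 64.0 in control, 110.3 to 115 in guide 1 and 132 to 134 in guide 2 cells. MFAP5 (5.26), POSTN (4.10), TAGLN (3.91), LUM (3.11) and PDPN (2.83) rose in the knockout. DCN averaged 0.631, 0.819 and 0.712 CPM in control, guide 1 and guide 2, PDGFRA 1.37, 0.745 and 0.715, THY1 0.0400, 0.367 and 0.499, and COL1A2 stayed under 0.2 CPM in every library. No marker of the list was at 0 in all libraries. Endothelial markers summed to at most 3.32 CPM in any library. The part of these markers in the collagen changes was not tested.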

How the data were processed

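All 18 libraries are columns of 1 table in which the authors deposited raw counts by gene, with no scaling. The submitters' processing notes name HISAT2, HTSeq and hg38. Tool versions, annotation and strand setting: not given in the sources used here. Libraries were made from total RNA with a stranded mRNA kit, per the labels. Gene names, classes, exon lengths and positions were joined by Ensembl identifier from GENCODE 29. Members and gene lists were chosen with earlier results of these data known.

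The analysis ran in edgeR 4.0.16 under R 4.3.3: filterByExpr by group, TMM factors, 1 negative binomial fit with 6 group means to all 18 libraries (12 residual degrees of freedom), robust quasi-likelihood tests and Benjamini-Hochberg adjustment over 21060 genes, with 0.05 as the threshold. The SE is the log2 change divided by the square root of the F statistic. Levels are CPM with effective library sizes, and errors of levels are SDs over 3 libraries. The scripts were tested on simulated data. Figures used Python 3.11.15, pandas 2.3.3 and matplotlib 3.10.9.

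By rule, values in every library are given for 24 collagen genes: 21 with a group mean of at least 1 CPM and a called log2 change of at least 1 in any of the knockout, the SOX10 effect in control or knockout cells, or the interaction, and 3 trimer partners of these. COL2A1, COL4A1, COL4A2 and, in part, COL3A1 were added after their values were seen. From each other list, up to 5 called genes with the largest change and at least 1 CPM could be named. Alternatives tried were RLE and library-size scaling, no low-count filter, a mean CPM of at least 1, DESeq2 1.42.0, fits on the compared groups only, the replicate number as a block, and each library left out. Chi-square per degree of freedom between libraries of a group was 3.54 to 11.8, so no 2 libraries looked like 1 library deposited again. The common biological coefficient of variation was 4.02%.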

Additional observations from a re-analysis of the deposited data

Results flagged for a closer look

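The effect of SOX10 overexpression differed between knockout and control cells for 23 of the 36 tested collagen genes by the interaction test in edgeR, each with an adjusted p under 0.05. It was higher in knockout cells for 18 and lower for 5, against 18.1% and 15.1% of all tested genes. Higher and lower refer to the signed effect. COL5A3, COL13A1 and COL17A1 fell with SOX10 in both backgrounds and fell less in knockout cells, while COL5A1 and COL6A2 fell more there. The values below are the log2 SOX10 effect in knockout cells minus that in control cells. Among FACIT genes the difference was 5.99 for COL9A1 and 4.26 for COL14A1, fitted values that depend on the prior count. Guide 1 and guide 2 hold 3 and 1 counts of COL9A1 and 4 and 7 counts of COL14A1. The difference was 2.43 for COL22A1, 1.9 for COL19A1, 1.85 for COL9A2, 1.68 for COL9A3 and 1.06 for COL12A1. Among fibrillar genes it was 2.94 for COL11A2, 2.73 for COL2A1, 1.36 for COL11A1, 0.601 for COL5A3, 0.587 for COL5A2, 0.281 for COL27A1 and -0.847 for COL5A1.

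For the other classes the difference was 2.03 for COL4A4, 0.335 for COL4A1 and -0.778 for COL4A5 in the basement membrane class. COL4A4 reached at most 0.507 CPM in any library. In the transmembrane class the difference was 1.36 for COL17A1 and 0.615 for COL13A1. It was -0.406 for COL6A2, -1.24 for COL8A1, 1.32 for COL18A1 and -1.55 for COL15A1. SOX10 itself rose by 0.35 log2 units in control and 2.15 in knockout cells, a difference of 1.80 measured in the same libraries. The part of that difference in the collagen values was not tested.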

How the results depend on the processing

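Over all 36 tested genes, 3562 gene values were recomputed: 3398 kept direction and side of the threshold, 48 lost and 24 gained a call and 92 changed sign, of which 0 were called with the reported settings. The cause of the changes was not tested. Counts of collagen genes called in each comparison stayed within 1.5 times those reported in each alternative run, except guide 2 above guide 1 (1 gene), which ran from 0 to 1 when 1 library was left out (0 without guide 1 replicate 3). With library-size scaling the sign changed for COL11A1 (0.056) and COL2A1 (0.0115) in knockout with SOX10 against control and COL6A3 (0.00589) in guide 2 against guide 1, and in the knockout for COL24A1 (0.0296), COL4A3 (0.0422) and COL8A2 (0.0988). The SOX10 effect on COL27A1 in control cells, -0.00, was 0.000228 with RLE, 0.000654 with library-size scaling, 0.0148 without the filter, 0.00176 with a mean CPM of at least 1, 1.41e-05 with DESeq2 and 0.00444 with the compared groups only. For COL16A1, also -0.00, these values were 0.00234, 0.00289, 0.0169, 0.00395, 0.00227 and 0.00664 in the same order. Leaving out 1 library changed signs within these ranges: COL4A1 -0.0181 to 0.0489, COL24A1 -0.312 to 0.0344, COL4A3 -0.558 to 0.414 and COL8A2 -0.341 to 0.536 in the knockout; COL2A1 -0.0304 to 0.175, COL27A1 -0.056 to 0.0656, COL4A3 -0.781 to 0.201, COL16A1 -0.0671 to 0.0595, COL21A1 -0.467 to 0.322 and COL8A2 -0.264 to 0.559 with SOX10 in control cells; COL4A3 -0.0603 to 0.279 and COL16A1 -0.0623 to 0.0412 with SOX10 in knockout cells; COL11A1 -0.257 to 0.0106, COL4A5 -0.0369 to 0.0629, COL4A3 -0.427 to 0.55 and COL8A2 -0.712 to 0.11 in knockout with SOX10. Interaction ranges were COL1A1 -0.231 to 0.232, COL3A1 -2.33 to 0.449, COL4A6 -1.16 to 0.186, COL6A1 -0.0433 to 0.0245, COL7A1 -0.0237 to 0.278, COL4A3 -0.0648 to 0.918, COL16A1 -0.0707 to 0.0615, COL21A1 -0.177 to 0.613 and COL25A1 -0.0877 to 1.32. For guide 2 against guide 1 they were COL4A2 -0.116 to 0.00215, COL4A4 -0.288 to 0.612, COL4A6 -0.15 to 0.0586, COL6A3 -0.0238 to 0.00917, COL22A1 -0.437 to 0.449, COL24A1 -0.534 to 0.138, COL8A2 -0.292 to 0.669 and COL25A1 -0.0671 to 0.508. In knockout with SOX10 against control, library-size scaling ended the calls of COL27A1 (adjusted p = 0.957), COL7A1 (0.215) and COL16A1 (0.436). Leaving out control replicate 1 ended those of COL27A1 (0.169), COL7A1 (0.113), COL16A1 (0.14) and COL21A1 (0.164). The COL16A1 call was also lost without control replicate 3 (0.0541) or guide 1 plus SOX10 replicate 2 (0.056). That of COL21A1 was lost without guide 2 plus SOX10 replicate 1 (0.0653), and that of COL27A1 with a mean CPM of at least 1 (0.0509).

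No strong pairing by replicate number was seen: 0 of 45 same-numbered pairs had a correlation of deviations over 0.1 (-0.0295 to 0.0711). Since 11 of 18 libraries correlated best with their own number, a weak pairing is not excluded. With the replicate number as a block, 10 collagen genes rose and 20 fell in the knockout, where COL5A3 was called (-0.159, adjusted p = 0.044), and 10 were lower in guide 2, where COL6A2 was called (-0.159, adjusted p = 0.0402). Of all 21060 tested genes, 6077 rose and 6245 fell in the knockout with the block, and 1384 were lower in guide 2. The other collagen counts with the block were those reported. The block turned the SOX10 effect in control cells of COL16A1 to 0.00299 and of COL8A2 to 0.0458, neither called. The interaction uses all 6 groups, so a fit on the compared groups has no separate value. The CPM of single libraries moved by factors of 0.93 to 1.05 under library-size scaling, and 48 of 222 group means moved by at least 1 SD. Genes with few counts are limited by depth: levels near the 0.0359 to 0.0493 CPM that 3 counts correspond to carry wide counting intervals.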

Other observations

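The 8 collagen genes below the low-count filter are given as counts. COL28A1, a beaded-filament-like collagen, held 3 counts over the 3 control libraries, 4 over control plus SOX10, 2 over guide 1, 17 over guide 1 plus SOX10, 4 over guide 2 and 28 over guide 2 plus SOX10. Its counts are highest in the knockouts with SOX10, where each library stood at 0.0776, 0.0780 and 0.0674 and 0.146, 0.0820 and 0.164 CPM. COL6A6 held 79 counts over all 18 libraries, COL1A2 62, COL10A1 61, COL20A1 19, COL23A1 12 and COL26A1 11. COL6A5 was listed at 0 in all 18 libraries, a level under the 0.0359 to 0.0493 CPM that 3 counts correspond to.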
